A study of Homo sapiens with 16 samples.

Results

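Histone H3 methylated once at lysine 4 (H3K4me1) was compared with H3 methylated 3 times at the same residue (H3K4me3) in Toledo cells, an established line from a human diffuse large B-cell lymphoma. The comparison takes 4 of the 16 samples of a chromatin immunoprecipitation sequencing (ChIP-seq) study, namely the H3K4me1 and H3K4me3 libraries of DMSO-treated cells, 2 of each, and with them 58688 of the 108656 deposited peaks. The other samples are H3K27ac libraries and input chromatin of the DMSO cells, and the libraries of cells given 5 uM TP-064, which inhibits CARM1, an enzyme that methylates arginines. DMSO is the solvent control, and per the labels the cells of every library, grown in suspension, had their treatment for 6 days. All samples come from 1 cell line and the labels put the DMSO libraries on lane 3. Nothing in the labels says that replicates 1 and 2 came from separate cultures, so the spread between them may be technical. Each H3K4me3 peak was placed in 1 of 4 classes by the H3K4me1 peaks of the same replicate number. The classes were H3K4me1 within 5 kb outside both edges (both sides), outside 1 edge only (1 side), on the H3K4me3 peak with neither side reached (overlapping only), and no H3K4me1 on the peak or within 5 kb (absent).

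H3K4me3 is placed mainly by the SETD1A, SETD1B, KMT2A and KMT2B complexes and marks the nucleosomes around active or poised gene starts, most of them rich in CpG dinucleotides. H3K4me1 is placed mainly by KMT2C and KMT2D and is known for enhancers, where H3K4me3 is low, and for the shoulders of promoters. A single lysine holds only 1 methylation state at a time. Peaks of both marks on the same bases can therefore stand for different histone tails, nucleosomes, alleles or cells. What the overlaps in these data stand for was not tested. KMT2D is among the genes most often mutated in this kind of lymphoma.

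The following 250 bases before the gene start show promoters at either end of the classification, with H3K4me1 on both sides of the H3K4me3 peak in both replicates (CD79A and SPIB) and with none within 5 kb in either replicate (BACH2 and MKI67). CD79A encodes a signalling chain of the B-cell receptor, SPIB a transcription factor of B cells, BACH2 a transcriptional repressor of activated B cells, and MKI67 a protein of proliferating cells. They are from RefSeq (GRCh38.p14), 5′ to 3′ in the direction of transcription, at chr19:41877029-41877278 (plus strand), chr19:50418688-50418937 (plus), chr6:90296844-90297093 (minus) and chr10:128126424-128126673 (minus). Capitals mark CpG dinucleotides.
CD79A: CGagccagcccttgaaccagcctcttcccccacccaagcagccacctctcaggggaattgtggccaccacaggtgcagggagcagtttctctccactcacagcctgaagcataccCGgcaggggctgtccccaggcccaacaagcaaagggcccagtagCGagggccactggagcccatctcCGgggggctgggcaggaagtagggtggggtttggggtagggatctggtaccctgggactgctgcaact
SPIB: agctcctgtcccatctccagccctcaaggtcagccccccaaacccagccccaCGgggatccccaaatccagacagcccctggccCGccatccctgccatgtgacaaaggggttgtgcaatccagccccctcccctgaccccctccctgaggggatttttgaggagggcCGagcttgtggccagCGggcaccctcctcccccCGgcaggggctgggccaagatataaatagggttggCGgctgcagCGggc
BACH2: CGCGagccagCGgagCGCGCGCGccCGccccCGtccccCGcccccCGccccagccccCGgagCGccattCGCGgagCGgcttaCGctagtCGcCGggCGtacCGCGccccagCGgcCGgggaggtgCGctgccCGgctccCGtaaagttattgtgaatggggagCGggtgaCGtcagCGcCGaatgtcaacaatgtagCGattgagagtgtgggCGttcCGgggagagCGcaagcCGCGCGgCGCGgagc
MKI67: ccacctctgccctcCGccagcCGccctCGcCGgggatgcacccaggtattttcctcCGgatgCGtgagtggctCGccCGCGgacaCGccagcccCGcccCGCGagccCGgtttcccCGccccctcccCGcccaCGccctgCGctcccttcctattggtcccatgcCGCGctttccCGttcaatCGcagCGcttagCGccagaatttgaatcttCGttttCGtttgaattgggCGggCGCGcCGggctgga

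These stretches hold 4 and 7 CpG dinucleotides at CD79A and SPIB, against 40 and 30 at BACH2 and MKI67. The ratio of observed to expected CpG was 0.16 at CD79A and 0.26 at SPIB, against 1.18 at BACH2 and 1.08 at MKI67. The 4 promoters were chosen with their classes known, and their contrast is far larger than that between the classes. Among genes with H3K4me3 at the start in both replicates, the median ratio was 0.84 for both-sided and 0.84 for absent genes in replicate 1. In replicate 2 it was 0.80 and 0.85, as given with the other classes further on.

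The H3K4me1 lists held 25058 and 9673 peaks in DMSO replicates 1 and 2, and the H3K4me3 lists 12476 and 11481. The lists carry no reads, so depth is unknown, and a site with no peak may be one that fell short of the peak caller's threshold. H3K4me1 differed most between replicates: 96.7% of the replicate 2 peaks were overlapped by a replicate 1 peak, and 32.9% of the replicate 1 peaks by a replicate 2 peak. For H3K4me3 these shares were 99.5% and 91.2%. Of 6 B-cell markers, 6 had H3K4me3 within 2 kb of a gene end in both replicates. For all genes with a start, counted at the start alone, the share was 55.7%. None of the 7 T and NK cell markers or the 6 myeloid markers had it, and of 6 epithelial and stromal markers only COL1A1, a collagen gene, did. H3K4me1 separated the sets less. In at least 1 replicate it lay there at 5 of the 6 B-cell markers and 3 of the 7 T and NK markers. It lay at 0 of the 6 myeloid markers and 1 of the 6 epithelial and stromal markers. Over all genes, counted at the start alone, H3K4me1 lay at 53.4% of starts with H3K4me3 and 7.94% without in replicate 1. In replicate 2 these shares were 13.6% and 4.15%.

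H3K4me1 and H3K4me3 peaks differed most in where they lay. Peaks within 2 kb of the start or end of a protein-coding gene made up 34.2% and 27.5% of the H3K4me1 lists, against 77.1% and 80.4% of the H3K4me3 lists. The means were 30.8% ± 4.73 (SD, n = 2) for H3K4me1 and 78.7% ± 2.33 for H3K4me3, a difference of -47.9 percentage points, larger than either SD. The two-sided exact permutation test gave p = 0.33, the smallest p that 2 libraries against 2 allow. H3K4me1 peaks had a median width of 1853 and 1817 bp and H3K4me3 peaks of 2166.5 and 2075 bp, a log2 ratio of -0.21 (exact permutation p = 0.33). Long peaks were more common for H3K4me1, with 6.87% and 5.24% of peaks over 5 kb against 1.403% and 0.94% for H3K4me3. In lists cut to their widest 9673 peaks the ratio of median widths turned to 0.11. Peak numbers did not differ beyond the spread between the H3K4me1 libraries (log2 ratio 0.54, exact permutation p = 1), and without replicate 1 the ratio was -0.25.

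H3K4me3 peaks fell mainly into 3 of the 4 classes. In replicate 1, 3373 of 12476 H3K4me3 peaks (27.04%) had H3K4me1 on both sides, 3798 (30.4%) on 1 side, 191 (1.53%) overlapping only, and 5114 (41.0%) none within 5 kb. In replicate 2, with its shorter H3K4me1 list, the counts were 680 of 11481 (5.92%), 1646 (14.3%), 53 (0.46%) and 9102 (79.3%). Over both replicates the shares were 16.5% ± 14.9 (SD, n = 2) for both sides, 22.4% ± 11.4 for 1 side, 0.996% ± 0.756 for overlapping only and 60.1% ± 27.1 for absent. The order of the classes was the same in both replicates, but the size of each share followed the H3K4me1 list used. H3K4me3 peaks of replicate 1 set against H3K4me1 of replicate 2 had H3K4me1 absent in 78.0% of cases, and the reverse pairing gave 41.6%. With the widest 9673 H3K4me1 peaks in each replicate, both-sided peaks were 12.3% and 5.92% and absent ones 75.1% and 79.3%. This cut leaves the replicate 2 list whole and takes the narrow peaks from replicate 1. There, H3K4me1 peaks overlapping H3K4me3 had a median width of 1598 bp, against 1971 bp for those farther than 5 kb from it. At the limit of the window, 88 H3K4me3 peaks of replicate 1 had their nearest H3K4me1 peak at 4 to 5 kb and 101 at 5 to 6 kb, and in replicate 2 these numbers were 111 and 108. H3K4me3 peaks of the absent class lay at a median of 61.7 kb in replicate 1 and 137 kb in replicate 2 from the nearest H3K4me1 peak.

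**Figure D1:**
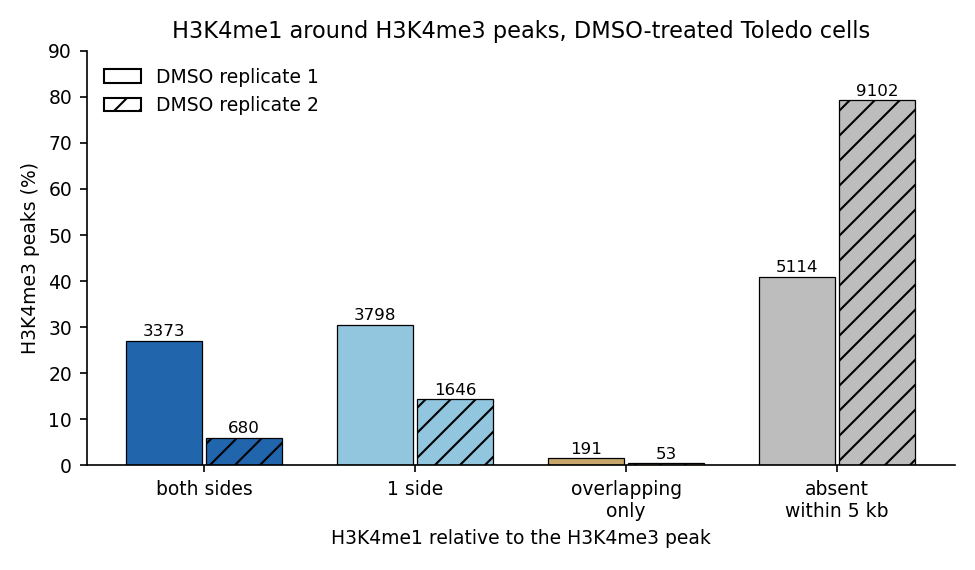
Share of H3K4me3 peaks (y axis, %) in each class of H3K4me1 position (x axis) in DMSO replicate 1 (plain bars) and replicate 2 (hatched bars), with the number of peaks above each bar. Absent is the most frequent class in both replicates, at 41.0% and 79.3%.

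Absence in replicate 1 and both-sidedness in replicate 2 mostly carried over to the other replicate, and the other classes did so less. These 2 results were largely set in advance, since 96.7% of the replicate 2 H3K4me1 peaks were overlapped by the longer replicate 1 list. They therefore do not show that the classes repeat. Of all 11366 shared regions, 9019 were absent by the replicate 2 list and 2840 both-sided by the replicate 1 list. Of the 11366 H3K4me3 regions present in both replicates, 4717 had no H3K4me1 within 5 kb by the replicate 1 list, and 4658 of these (98.7%) had none by the replicate 2 list either. Of the 617 regions with H3K4me1 on both sides in replicate 2, 596 (96.6%) had it on both sides in replicate 1. Of the 1622 regions 1-sided in replicate 2, 36.6% were 1-sided and 59.5% both-sided in replicate 1, and of the 9019 absent in replicate 2, 51.6% were absent in replicate 1. Regions that were both-sided in replicate 1 alone were mostly absent (1227) or 1-sided (965) in replicate 2. In all, 51.5% of the shared regions had the same class in both replicates.

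Within 5 kb, the marks mostly overlapped. An H3K4me1 peak overlapped 54.3% of the H3K4me3 peaks in replicate 1 and 15.2% in replicate 2. H3K4me1 lay within 5 kb without overlap beside 48 both-sided and 537 1-sided peaks in replicate 1, and beside 49 and 580 in replicate 2. Counted in bases, 16.3% and 8.90% of the H3K4me1 sequence lay inside H3K4me3 peaks, and 34.6% and 7.83% of the H3K4me3 sequence lay inside H3K4me1 peaks.

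H3K4me1 coverage was higher at the edges of H3K4me3 peaks than at their centres. H3K4me1 covered 37.6% of the edge positions and 25.3% of the centres in replicate 1, and 9.32% of the edges and 5.94% of the centres in replicate 2. The edge exceeded the centre by 12.4 and 3.38 percentage points (two-sided exact sign-flip permutation p = 0.5, the smallest that 2 pairs allow). Outside the peak, coverage fell to 12.3% and 4.86% at 1 kb, 7.78% and 3.02% at 5 kb, and 6.57% and 2.53% at 20 kb. The centres therefore had more H3K4me1 than sequence 20 kb away, by 18.7 and 3.41 percentage points (exact sign-flip permutation p = 0.5), and less than the edges. Peaks at gene starts had a deeper dip, with 34.9% of edges and 19.3% of centres covered in replicate 1, against 40.2% and 36.1% for peaks away from gene starts and ends. In replicate 2 the values were 7.99% and 4.38% at gene starts, against 11.5% and 8.66% away from them. The difference between these dips was not tested.

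**Figure D2:**
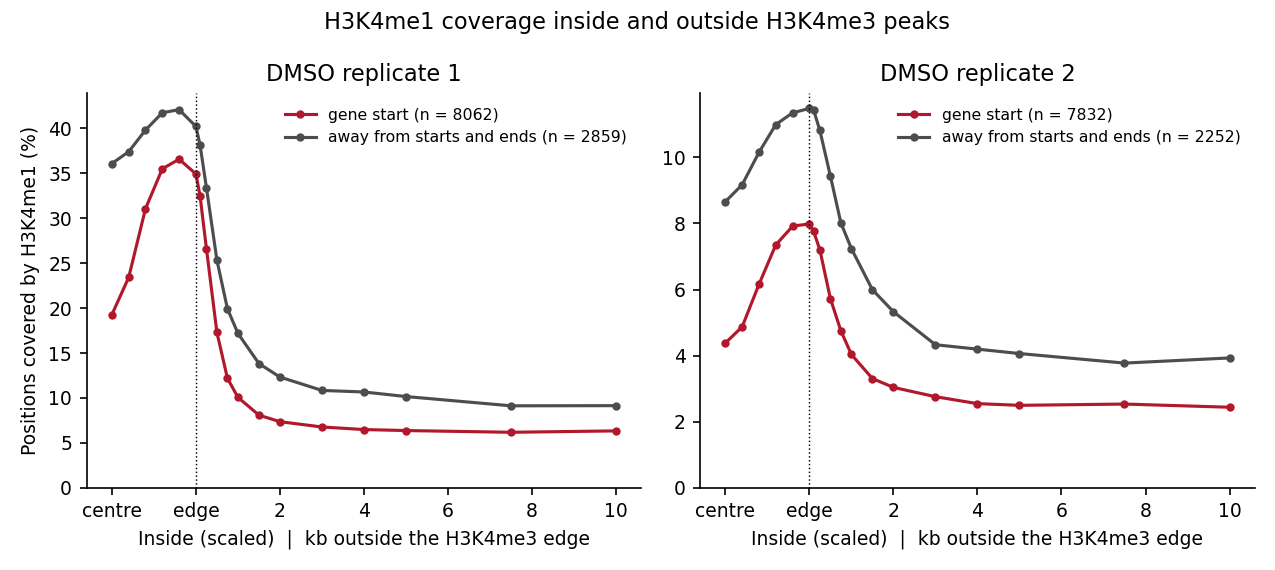
Share of positions covered by an H3K4me1 peak (y axis, %; the 2 panels have different scales) from the centre of H3K4me3 peaks to their edge (scaled) and on to 10 kb outside (x axis), for peaks within 2 kb of a gene start (red) and peaks away from gene starts and ends (grey). Coverage is highest at or just inside the edge in both replicates, and the dip at the centre is deeper at gene starts, at 19.3% against 34.9% at the edge in replicate 1.

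Both-sided peaks differed in how far H3K4me1 reached into them. H3K4me1 covered the centre of 2047 of 3373 both-sided peaks in replicate 1 and of 379 of 680 in replicate 2. In 1440 (42.7%) and 245 (36.03%) it covered every base of the H3K4me3 peak. In 1326 (39.3%) and 301 (44.3%) the centre was free, with H3K4me1 peaks left and right of it. The free stretch around the centre had a median length of 1094 bp in replicate 1 (quartiles 633 and 2374 bp) and 2665 bp in replicate 2 (1087 and 4809 bp). On 1-sided peaks H3K4me1 overlapped the H3K4me3 peak in 85.9% and 64.8% of cases and left its centre free in 74.0% and 83.8%.

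The strand of genes showed which side carried H3K4me1. Gene starts were taken from RefSeq for 15812 of 19974 protein-coding genes, and 6928 and 6726 H3K4me3 peaks in replicates 1 and 2 belonged to 1 gene start alone. Among these, 2212 and 900 were 1-sided, and H3K4me1 lay on the downstream side, into the gene, in 1428 (64.6%) and 531 (59.0%). At such gene starts H3K4me1 coverage had a peak on each side and a dip at the start. In replicate 1 it reached 34.9% at 1.1 kb downstream and 26.1% at 0.7 kb upstream, and was 18.1% at the start. In replicate 2 the values were 7.60% at 1.1 kb downstream, 6.14% at 0.8 kb upstream and 3.93% at the start. H3K4me3 covered 96.9% and 96.8% of the same starts, and 82.5% and 78.8% of positions 1 kb downstream but 37.2% and 32.3% of those 1 kb upstream. Where the centre was free between H3K4me1 peaks at a gene start, the free stretch held the start in 591 of 760 cases (77.8%) and in 139 of 171 (81.3%). H3K4me1 then began at a median of 647.5 and 1412 bp downstream of the start and 281.5 and 458 bp upstream of it.

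**Figure D3:**
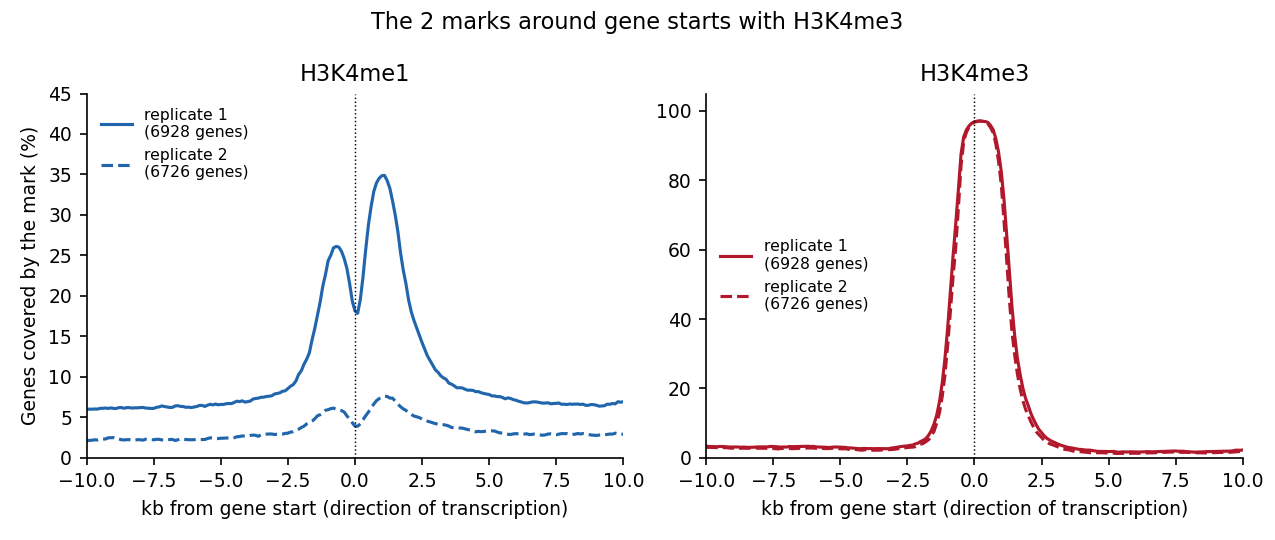
Share of genes (y axis, %; the 2 panels have different scales) covered by H3K4me1 (left) and H3K4me3 (right) at each distance from the gene start (x axis, kb, positive in the direction of transcription), for genes that alone hold the H3K4me3 peak at their start; solid lines are DMSO replicate 1, dashed lines replicate 2. H3K4me1 has 2 maxima around a dip at the start, the higher one downstream (34.9% against 26.1% upstream in replicate 1), while H3K4me3 has 1 maximum and covers 96.9% of the starts in replicate 1.

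H3K4me1 was more frequent at gene starts with H3K4me3 than at those without, and most starts with H3K4me3 in replicate 2 (7615) had no H3K4me1. H3K4me1 lay within 2 kb of 4834 of the 9048 gene starts with H3K4me3 in replicate 1 (53.4%) and of 537 of the 6764 without it (7.94%). In replicate 2 it lay at 1202 of 8817 (13.6%) with H3K4me3 and at 290 of 6995 (4.15%) without. H3K27ac, the acetyl mark of active promoters and enhancers, was within 2 kb of 49.2% of the starts with both marks in replicate 1, 9.68% with H3K4me1 only and 32.5% with H3K4me3 only. In replicate 2 these shares were 34.7%, 8.62% and 19.1%. Starts with neither mark had H3K27ac in 0.06% and 0.10% of cases.

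H3K4me3 peaks at gene starts were both-sided less often than those away from gene starts and ends, at 23.3% against 32.4% in replicate 1 and 4.65% against 8.17% in replicate 2 (mean difference -6.30 percentage points ± 3.92, SD, n = 2 pairs; exact sign-flip permutation p = 0.5). Absence of H3K4me1 was more frequent at gene starts, at 43.0% against 40.6% and 81.4% against 75.8%. The 1-sided share went opposite ways, at 32.1% against 26.0% in replicate 1 and 13.5% against 15.7% in replicate 2.

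The width of the H3K4me3 peak went with the arrangement of H3K4me1. In the narrowest quartile of replicate 1 (465 to 1720 bp) H3K4me1 covered the centre of 40.5% of peaks, and in the widest quartile (2673 to 15441 bp) of 14.9%. In replicate 2 these shares were 10.6% and 3.83%. From the narrowest quartile to the widest, H3K4me1 was absent beside 47.7%, 48.3%, 40.1% and 27.8% of peaks in replicate 1 and beside 78.6%, 84.1%, 81.5% and 73.0% in replicate 2. The both-sided share had its lowest value in the second quartile in both replicates, at 21.0% and 4.18%. The 175 H3K4me3 peaks over 5 kb in replicate 1 were both-sided in 53.1% of cases and without H3K4me1 in 10.9%, and the 108 of replicate 2 in 18.5% and 50.9%.

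Promoters of the classes were compared by CpG ratio and by G and C content. Among the 8807 genes with H3K4me3 at the start in both replicates, the median ratio of observed to expected CpG in the 250 bases before the start was 0.84 for both-sided, 0.86 for 1-sided and 0.84 for absent genes by the replicate 1 classes, and 0.80, 0.85 and 0.85 by those of replicate 2. Over all 15812 starts it was 0.74. Median G and C content was 67.6%, 66.0% and 64.4% in the same order in replicate 1, and 70.4%, 68.0% and 65.2% in replicate 2. Among promoters ranked by G and C content, in the richest quartile (72.4% to 96.4%) 30.5% of genes were both-sided in replicate 1 and 7.31% in replicate 2, against 18.5% and 2.77% in the poorest quartile (21.2% to 58.8%). From the lowest quartile of CpG ratio to the highest, 26.5%, 21.1%, 22.4% and 21.4% of genes were both-sided in replicate 1, and 5.95%, 4.13%, 3.41% and 3.18% in replicate 2. The part of either measure in the classes was not tested. The GC box GGGCGG, searched on both strands, was in 74.0%, 72.9% and 68.1% of the both-sided, 1-sided and absent promoters of replicate 1, and in 56.0% of all promoters of that length. The TATA box TATAAA, also on both strands, was in 4.92%, 4.44% and 4.67%, and in 9.25% of all. Both-sided genes were shorter, with a median of 18.5 and 15.1 kb in replicates 1 and 2, against 39.0 and 33.1 kb for absent genes.

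H3K27ac was more frequent on H3K4me3 peaks with H3K4me1 beside them. It overlapped 47.0% and 36.03% of the both-sided H3K4me3 peaks in replicates 1 and 2, against 25.5% and 16.0% of the absent ones, a mean difference of 20.8 percentage points ± 0.98 (SD, n = 2 pairs; exact sign-flip permutation p = 0.5). On 1-sided peaks the shares were 41.8% and 31.8%, nearer to the both-sided than to the absent peaks. The difference between both-sided and absent peaks had the same sign in each quartile of H3K4me3 width. In the narrowest quartile the shares were 21.5% and 18.4% for both-sided against 2.89% and 1.46% for absent peaks, and in the widest 79.7% and 66.7% against 68.9% and 42.7%. Away from gene starts and ends they were 42.9% and 42.9% against 14.6% and 10.4%. H3K27ac overlapped 36.3% of all H3K4me3 peaks in replicate 1 and 19.4% in replicate 2, so each replicate was compared within itself.

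Both-sided DMSO peaks were set against the H3K4me3 lists of the inhibitor libraries. Of the both-sided DMSO peaks 63.9% and 57.1% overlapped an H3K4me3 peak in both TP-064 libraries, against 78.8% and 85.4% of the absent peaks (mean difference -21.6 percentage points ± 9.498, SD, n = 2 pairs; exact sign-flip permutation p = 0.5). The shares were 83.0% and 79.8% for 1-sided peaks and 82.2% and 67.9% for overlapping only peaks. These 2 classes thus lay above the absent peaks in replicate 1 and below them in replicate 2. At gene starts the both-sided shares were 79.5% and 70.6% against 88.1% and 91.2% for absent peaks. Away from gene starts and ends they were 34.1% and 31.5% against 50.9% and 63.5%. From the narrowest quartile of width to the widest, the shares in replicate 1 were 13.7%, 63.1%, 84.8% and 93.9% of both-sided peaks, against 37.0%, 91.8%, 98.5% and 99.3% of absent ones. In replicate 2 they were 20.1%, 54.2%, 79.5% and 91.5%, against 50.1%, 93.9%, 98.3% and 99.1%. Both-sided peaks of replicate 1 were also found less often in the other DMSO library, at 85.5% against 92.3% of absent peaks, while for replicate 2 these shares were 99.4% and 99.5%. Since the labels put the inhibitor libraries on lane 4, an effect of lane cannot be told apart from that of TP-064. Both DMSO replicates were set against the same 2 inhibitor lists.

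**Figure D4:**
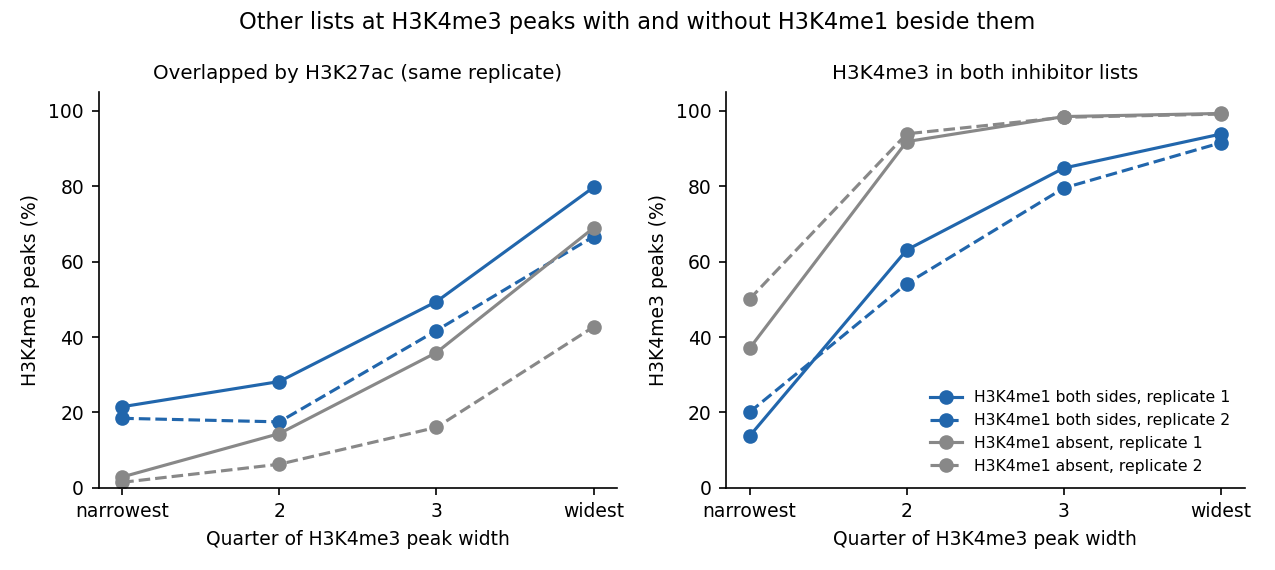
Share of H3K4me3 peaks (y axis, %) overlapped by H3K27ac of the same DMSO replicate (left) and by H3K4me3 in both inhibitor lists (right), by quartile of H3K4me3 peak width (x axis), for peaks with H3K4me1 on both sides (blue) and absent within 5 kb (grey); solid lines are replicate 1, dashed lines replicate 2. In each quartile and replicate the both-sided peaks lie above the absent ones on the left (79.7% against 68.9% in the widest quartile of replicate 1) and below them on the right (93.9% against 99.3%).

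B-cell identity genes stood at the both-sided end of the gene lists. Of the 26 genes of that list 17 had a RefSeq start. Of these, 15 had H3K4me3 at it in both replicates (88.2%, against 55.7% of all genes with a start). H3K4me1 flanked 13 of the 15 on both sides in replicate 1, against 22.8% of all genes with H3K4me3 at the start, and 5 of the 15 in replicate 2, against 4.17%. None of the 15 was without H3K4me1 in replicate 1 (42.8% of all genes), and CR2, SYK and BTK, named after their values were seen, were without it in replicate 2 (82% of all genes). EBF1 was the member 1-sided in both replicates (5.19% of all genes), and no member was absent in both (42.2%) or overlapping only in replicate 1 (1.65%) or 2 (0.466%). H3K4me1 lay within 5 kb of 12 of the 15 in both replicates, against 17.5% of all genes. The 5 genes both-sided in both replicates, a class of 3.94% of all genes, were TCF3, SPIB, CD79A, POU2F2 and CD72, the last named after its values were seen. The list also had wide H3K4me3 peaks, with a median of 4004 and 3162 bp against 2371 and 2221 bp over all genes, and few CpGs, with a median ratio of 0.41 against 0.85. Among genes in the widest quartile of H3K4me3 in replicate 1, 8 of 9 list members were both-sided against 32.9% of all, and among the narrower ones 5 of 6 against 19.5%. In replicate 2 these counts were 2 of 9 against 5.50% and 3 of 6 against 3.72%. For the lists that follow, the share of all genes is not matched for width unless a width quartile is named. The lists were chosen with earlier results of these data known, and genes are not replicates.

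CD79A had H3K4me3 peaks of 2590 and 2462 bp in replicates 1 and 2. H3K4me1 covered 5000 and 2774 bp of the 5 kb upstream of them, 2052 and 1623 bp inside them and 3809 and 854 bp of the 5 kb downstream. Both replicates thus had H3K4me1 on both sides, and less of it in replicate 2. SPIB had H3K4me3 peaks of 4762 and 3968 bp, with 4383 and 3608 bp of H3K4me1 upstream, 2509 and 1259 bp inside and 3089 and 1295 bp downstream. TCF3, an E-protein transcription factor of early B cells, had H3K4me3 over 5179 and 4468 bp, with 5000 and 4477 bp of H3K4me1 upstream and 4258 and 3062 bp downstream. Inside the TCF3 peak H3K4me1 covered 2869 bp in replicate 1 and 0 bp in replicate 2. POU2F2, which encodes the octamer factor OCT2, had narrow H3K4me3 peaks of 1432 and 1366 bp, covered by H3K4me1 over 1432 and 1154 bp. H3K4me1 thus covered the whole POU2F2 peak in replicate 1 and most of it in replicate 2, while at TCF3 in replicate 2 it lay only beside the peak.

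PAX5, the factor that commits cells to the B lineage, had the widest H3K4me3 peaks of both lists, 15441 and 15026 bp. H3K4me1 lay upstream of PAX5 over 1902 and 2473 bp and downstream over 1288 bp in replicate 1 and 0 bp in replicate 2. Inside the PAX5 peak it covered 3922 and 865 bp, a small part of the width in both replicates. EBF1, which acts with PAX5 in early B cells, had H3K4me3 over 7740 and 7440 bp with H3K4me1 upstream only, over 4171 and 2684 bp, and none inside. MS4A1, which encodes CD20, had H3K4me3 peaks of 3399 and 2735 bp, with H3K4me1 over 3399 and 1408 bp inside them, and was both-sided in replicate 1 and 1-sided in replicate 2. MS4A1 and MYC have no RefSeq start in the table used, so their sides are given by coordinate. IRF8 and BCL11A, named after their values were seen, had no H3K4me3 at the start used. H3K4me1 was there in both replicates at IRF8 and in replicate 1 at BCL11A.

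**Figure D5:**
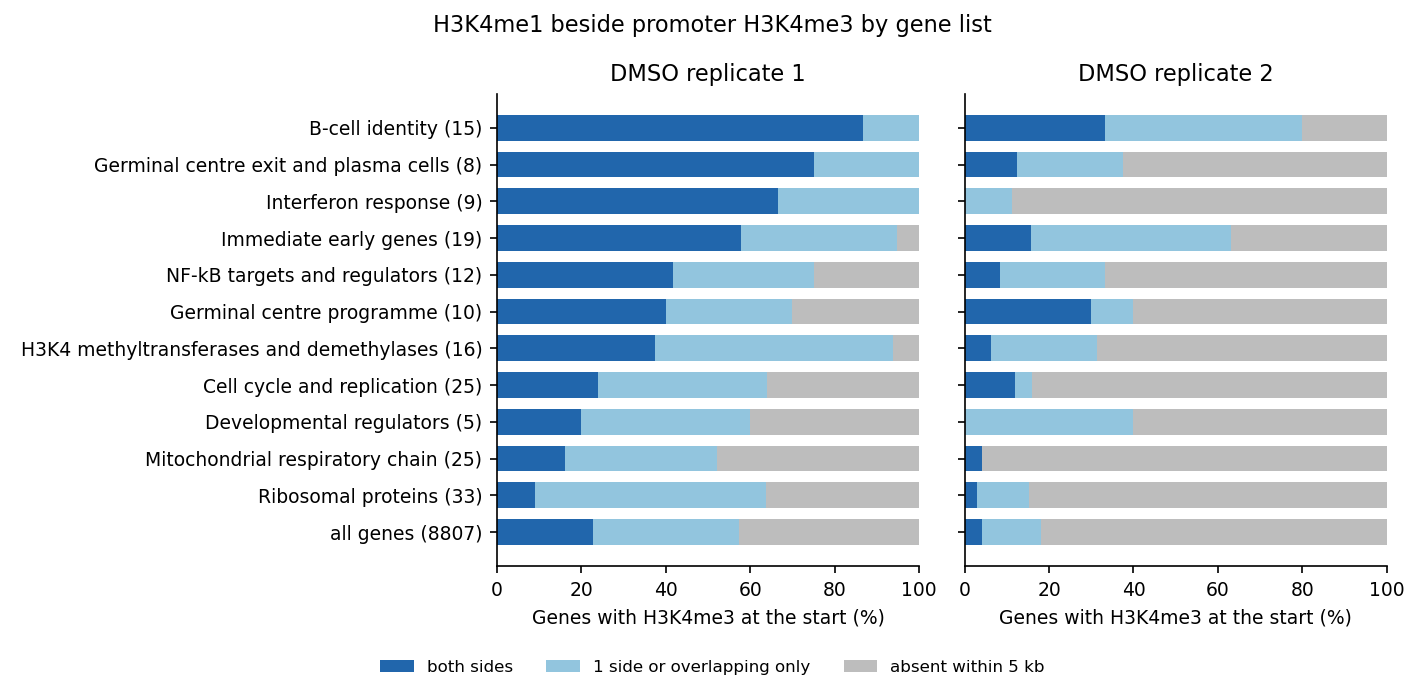
Share of the genes with H3K4me3 at the start in both replicates (x axis, %; number of genes in parentheses) that had H3K4me1 on both sides (dark blue), on 1 side or overlapping only (light blue) or absent within 5 kb (grey) in replicate 1 (left) and replicate 2 (right), for the lists with 5 or more such genes (rows) and for all genes (bottom row). B-cell identity genes have the largest both-sided share in both replicates (13 and 5 of 15, against 22.8% and 4.17% of all genes). The germinal centre list is close to it in replicate 2 (3 of 10). Ribosomal protein genes (3 and 1 of 33) lie below all genes in replicate 1 (9.09%) and near them in replicate 2 (3.03%).

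Genes of the germinal centre, where B cells mutate their receptors, were split. Of 10 with H3K4me3, 4 were both-sided in replicate 1 and 3 in replicate 2, against 22.8% and 4.17% of all genes, and 3 and 6 were without H3K4me1, against 42.8% and 82%. In the widest quartile of H3K4me3, 3 of 7 members were both-sided in replicate 1, against 32.9% of all genes there. In replicate 2 it was 1 of 6, against 5.50%. Among the narrower ones it was 1 of 3 against 19.5%, and 2 of 4 against 3.72%. GCSAM, a signalling protein of germinal centre B cells, had H3K4me3 over 3430 and 2953 bp between H3K4me1 that filled 4249 and 3824 bp upstream and 5000 and 4155 bp downstream. MEF2D, a MADS-box factor, had 3843 and 2123 bp of H3K4me3 with H3K4me1 over every base of it. S1PR2, a receptor that confines these cells, was both-sided with H3K4me3 peaks of 1879 and 1617 bp. BACH2 had 5167 and 4287 bp of H3K4me3, MEF2C, a relative of MEF2D, 3606 and 2981 bp, and NEIL1, a DNA repair glycosylase, 2138 and 2068 bp. These 3 genes had no H3K4me1 within 5 kb in either replicate. GNA13, a G protein subunit, was 1-sided in both replicates, with 1123 and 982 bp of H3K4me1 downstream. BCL6, the master repressor of the germinal centre, had H3K4me3 over 3457 and 3333 bp and was both-sided in replicate 1 (2048 bp upstream and 3439 bp downstream) and without H3K4me1 in replicate 2. EZH2, a Polycomb methyltransferase, was 1-sided in replicate 1 by 90 bp downstream and without H3K4me1 in replicate 2.

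Of the 8 germinal centre exit genes 6 were both-sided in replicate 1 and 1 in replicate 2, against 22.8% and 4.17% of all genes. In the widest quartile of H3K4me3 it was 4 of 5 in replicate 1, against 32.9%, and 0 of 4 in replicate 2, against 5.50%. Among the narrower ones it was 2 of 3 against 19.5%, and 1 of 4 against 3.72%. The gene both-sided in replicate 2 was MZB1, a plasma cell chaperone, with H3K4me3 over 2936 and 2198 bp. Immediate early genes, which respond to stimuli without new protein synthesis, were both-sided at 11 and 3 of 19, against 22.8% and 4.17% of all genes, and without H3K4me1 at 1 and 7 of 19, against 42.8% and 82%. In the widest quartile of H3K4me3, 9 of 17 members were both-sided in replicate 1, against 32.9% of all genes there. In replicate 2 it was 2 of 14, against 5.50%. Among the narrower ones it was 2 of 2 against 19.5%, and 1 of 5 against 3.72%. ZFP36, which promotes mRNA decay, had 4391 and 4223 bp of H3K4me3, with 4993 and 3129 bp of H3K4me1 upstream and 3030 and 1539 bp downstream. BTG2, a growth inhibitor, had 4992 and 4065 bp of H3K4me3, with 4337 and 3001 bp of H3K4me1 inside it. Its relative BTG1 was the opposite case, with 8384 and 8058 bp of H3K4me3 and no H3K4me1 within 5 kb in either replicate. EGR2, a zinc finger factor, was 1 of 3 genes with the overlapping only class in both replicates (0.0341% of all genes), beside SAMD4A and FNDC3B. H3K4me1 covered 1788 and 1324 bp within the EGR2 peaks of 3899 and 3788 bp. NR4A1, a nuclear receptor gene, was both-sided with H3K4me1 over every base of its H3K4me3 peaks of 1661 and 1561 bp. JUN, a subunit gene of AP-1, was 1-sided by 104 bp upstream in replicate 1 and by 147 bp downstream in replicate 2.

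Of the 9 interferon response genes with H3K4me3, 6 were both-sided in replicate 1 and 0 in replicate 2, against 22.8% and 4.17% of all genes. In replicate 1, 0 of the 9 were without H3K4me1, against 42.8% of all genes. In replicate 2, 8 of the 9 were without H3K4me1 (88.9%), near the 82% of all genes. Of 12 NF-kB genes 5 and 1 were both-sided, against the same 22.8% and 4.17%. H3K4me1 was absent at 3 and 8 of the 12 (25% and 66.7%, against 42.8% and 82% of all genes). In the widest quartile of H3K4me3, 5 of 10 members were both-sided in replicate 1, against 32.9% of all genes there. In replicate 2 it was 0 of 6, against 5.50%. Among the narrower ones it was 0 of 2 against 19.5%, and 1 of 6 against 3.72%. TRAF3, an inhibitor of that pathway, was both-sided in both replicates, with H3K4me1 over 2978 and 2681 bp upstream and 1027 and 759 bp downstream of H3K4me3 peaks of 3357 and 2645 bp. The subunit genes NFKB1 and NFKB2 and the surface protein gene CD83 had no H3K4me1 within 5 kb in either replicate. These were 3 of the 12 (25%), against 42.2% of all genes. NFKBIA, which encodes the inhibitor IkB-alpha, had H3K4me1 upstream only, over 1503 and 1434 bp, and REL, another subunit gene, downstream only, over 87 and 1061 bp.

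Ribosomal protein genes were both-sided at 3 and 1 of 33, against 22.8% and 4.17% of all genes, and without H3K4me1 at 12 and 28 of 33 (36.4% and 84.8%, against 42.8% and 82%). In replicate 1, 16 of 33 were 1-sided, against 32.7% of all genes, and in replicate 2, 4 of 33, against 13.4%. RPLP0, a stalk protein, had H3K4me3 over 3143 and 3007 bp with 684 bp of H3K4me1 downstream in replicate 1 and none in replicate 2. RPL7A was overlapping only in replicate 1, with 1028 bp of H3K4me1 inside its peak, and without H3K4me1 in replicate 2. RPL4, RPS19 and RPL27 were 1-sided in both replicates, on the downstream side. RPS12, RPL15, RPS29 and RPLP1 had no H3K4me1 within 5 kb in either, beside H3K4me3 of 3889 and 3576 bp at RPS12 and 3002 and 2639 bp at RPLP1. Respiratory chain genes were both-sided at 4 and 1 of 25 (16% and 4%, against 22.8% and 4.17% of all genes) and without H3K4me1 at 12 and 24 of 25 (48% and 96%, against 42.8% and 82%), mostly near the shares of all genes. NDUFV1, a complex I subunit, was the both-sided one in both replicates. Cell cycle and replication genes were both-sided at 6 and 3 of 25 (24% and 12%, against 22.8% and 4.17% of all genes) and without H3K4me1 at 9 and 21 (36% and 84%, against 42.8% and 82%), also mostly near them. The transcription factor genes E2F1 and E2F2 were both-sided in both replicates, and E2F2 had 4756 and 4046 bp of H3K4me3 with 3326 and 3217 bp of H3K4me1 downstream. MKI67 (3338 and 2817 bp of H3K4me3) and MCM7, RRM1 and TYMS, which serve replication and nucleotide synthesis, had no H3K4me1 within 5 kb in either replicate.

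Of 19 genes of the enzymes that write and erase these marks and of their complexes, 16 had a RefSeq start. H3K4me3 was at 16 of these 16 starts in both replicates, against 55.7% of all genes with a start. They were both-sided at 6 and 1 of 16, against 22.8% and 4.17% of all genes, and without H3K4me1 at 1 and 11 of 16, against 42.8% and 82%. In the widest quartile of H3K4me3, 4 of 10 members were both-sided in replicate 1, against 32.9% of all genes there. In replicate 2 it was 0 of 10, against 5.50%. Among the narrower ones it was 2 of 6 against 19.5%, and 1 of 6 against 3.72%. KMT2D, the H3K4me1 writer, had H3K4me3 over 4436 and 4229 bp and H3K4me1 over 405 and 0 bp upstream, 3155 and 1689 bp inside and 1572 and 794 bp downstream. KDM5B, a demethylase that removes H3K4me3, had 3080 and 2971 bp of H3K4me3 with 1257 and 1184 bp of H3K4me1 downstream and, in replicate 1, 2841 bp upstream. MEN1, a subunit shared by the KMT2A and KMT2B complexes, was the gene both-sided in both replicates. KDM1B, a demethylase of H3K4me1 and H3K4me2, was the gene without H3K4me1 in both.

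Developmental regulators had H3K4me3 at 5 of 25 starts in both replicates (20%, against 55.7% of all genes), and 1 and 0 of the 5 were both-sided, against 22.8% and 4.17% of all genes. HOXA13, a homeobox gene, was 1-sided in both replicates with the side changing between them (1 of 5, against 5.19% of all genes). FOXD3 and LHX9 had no H3K4me1 within 5 kb in either replicate (2 of 5, 40%), near the 42.2% of all genes. SHH, a secreted morphogen, had no H3K4me3 at its start. T and NK markers had H3K4me3 in both replicates at 0 of 9 starts and myeloid markers at 0 of 10, against 55.7% of all genes. Epithelial and stromal markers had it at 1 of 4, which was VIM, an intermediate filament gene.

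Peaks at gene starts were ranked by the narrower of the 2 replicates, among the 15812 genes with a RefSeq start only. The widest with H3K4me1 on both sides in both replicates belonged to IRF2BP2, a transcriptional corepressor gene, and HDGF (6965 and 6063 bp). Next came UBTF, a factor of ribosomal RNA transcription (5634 and 5445 bp), ZBTB7B (6338 and 5407 bp) and TMEM187 (6004 and 5400 bp). H3K4me1 covered 6338 and 5369 bp inside the ZBTB7B peaks but 2057 and 492 bp inside those of TMEM187. The widest 1-sided peaks, after EBF1, were those of PTMA (7206 and 6942 bp), SMAD7, an inhibitor of TGF-beta signalling (6789 and 6380 bp), FAM78A (5734 and 5898 bp) and BCL2L11, which encodes the death factor BIM (5833 and 5543 bp). H3K4me1 lay downstream at PTMA, SMAD7 and FAM78A, and upstream at EBF1 and BCL2L11. The histone genes H2AC17 and H2BC17 share peaks of 6244 and 5864 bp with no H3K4me1 within 5 kb.

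Taken as regions present in both replicates, wherever they lay, the extremes were these. RHOH, a GTPase gene of blood cells, held the widest both-sided region by the narrower of the 2 replicates (chromosome 4, 40190530 to 40201488), with 10959 and 10836 bp of H3K4me3. H3K4me1 covered 4760 and 2627 bp on its lower side and 4459 and 1035 bp on its upper side, but 373 and 969 bp inside it. H3K4me1 thus lay mainly beside the RHOH region and covered little of it. Near TSPOAP1 (chromosome 17, 58328849 to 58340480), 11632 and 10180 bp of H3K4me3, wider than at RHOH in replicate 1, held 9623 and 6608 bp of H3K4me1, so H3K4me1 covered most of that region. Wide both-sided regions also lay at IRF2BP2 (10393 and 8948 bp) and DTX1 (7088 and 6625 bp). The widest regions with no H3K4me1 within 5 kb lay at PCDH9, a protocadherin gene (chromosome 13, 67223268 to 67232073; 8679 and 8146 bp of H3K4me3), at BTG1 (chromosome 12, 92139018 to 92147401), at RGMB, SIN3A and at STIM2 and TBC1D19. H3K27ac at the PCDH9 region covered 1848 bp in replicate 1 and 0 bp in replicate 2, and at SIN3A, a corepressor gene, 0 bp in both. At the both-sided regions of IRF2BP2 it covered 10393 and 10351 bp and at DTX1, a Notch pathway gene, 7088 and 7088 bp. MYC, the growth regulator on chromosome 8, had H3K4me3 over 6820 and 5349 bp, with H3K4me1 over 1920 bp on its upper side in replicate 1 and none in replicate 2.

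Seen from H3K4me1, most peaks were far from H3K4me3. In replicates 1 and 2, 32.5% and 19.8% of H3K4me1 peaks overlapped H3K4me3, 8.39% and 10.9% lay within 5 kb without overlap, and 59.1% and 69.3% lay farther off. The far peaks were within genes, beyond 2 kb of their ends, in 49.9% and 52.2% of cases and between genes in 39.3% and 35.0%. H3K27ac overlapped 43.7% and 29.2% of the H3K4me1 peaks that overlapped H3K4me3, against 15.9% and 15.6% of the far ones. Of the 5204 far regions present in both replicates, the widest lay in MSI2, an RNA-binding protein gene (chromosome 17, 57434389 to 57458105), with 23717 and 21711 bp of H3K4me1 and 19934 and 12218 bp of H3K27ac. Other wide ones lay at IL10RB, a cytokine receptor gene (19363 and 18710 bp of H3K4me1), CHST15 (20223 and 18234 bp) and again MSI2 (16185 and 15831 bp). H3K4me1 and H3K4me3 classes also varied by chromosome. In replicate 1 the share of H3K4me3 peaks without H3K4me1 was lowest on chromosome 11 (22.8% of 681) and highest on chromosome 13 (61.5% of 239).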

How the data were processed

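ChIP-seq peaks were deposited by the authors as 1 list for each library, with chromosome, start and end in bp on hg38 and no score, fold or read number, so depth is unknown. Per the submitters' processing notes, Bowtie 1.1.2 and MACS 1.4.2 were used. Peak threshold, use of inputs and read filters: not given in the sources used here. Inputs and the inhibitor H3K27ac and H3K4me1 lists were not analysed here. Lists were read as deposited (Python 3.11.15, numpy 2.4.6, pandas 2.3.3, scipy 1.17.1). At least 1 bp of H3K4me1 on a side or on the peak counted. RefSeq (GRCh38.p14) gave 19974 protein-coding genes, and its promoter table gave start and strand for 15812 of them. A gene had a mark at its start where a peak lay within 2 kb. Its H3K4me3 peak is the nearest such peak. Marks were compared by two-sided exact permutation over 6 assignments of libraries, and quantities of 1 replicate by exact sign flips over 2 pairs. Scripts were checked with simulated data. The members and the gene lists were chosen with earlier results of these data known. Genes were named by a rule: the 5 widest per class, up to 4 per list and class with 1 class in both replicates, 14 fixed genes, and the 5 widest regions of 3 kinds. Other genes are said to be named after their values were seen. Stricter score thresholds could not be run, and peak width was used in their place. Some genes and regions that the rule names are not reported here.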

Additional observations from a re-analysis of the deposited data

How the results depend on the processing

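Of 68 alternatives over 8 results, 65 left the result within the spread between replicates or with its direction, 1 moved it further and 2 reversed it. Some of the 65 could not have come out otherwise. The window does not enter the overlapped share, and the replicate block keeps the main value. Leaving out 1 of 2 replicates always stays within the SD of a share. That SD was also wide, at 14.9 for a both-sided share of 16.5%, so the count of 65 does not measure robustness. With at least 200 bp of H3K4me1 required, the overlapping only share was 4.08%, against 0.996%. The log2 ratio of peak numbers, H3K4me1 over H3K4me3, was 0.54 and ranged from -0.25 without replicate 1 to 1.01 without replicate 2. The log2 ratio of median widths, -0.21, was 0.11 with the widest 9673 peaks of each list and between -0.23 and -0.19 with 1 replicate left out. The difference in gene-end share was between -52.9 and -42.9 percentage points with 1 replicate left out, -51.2 with 1 kb, -42.5 with 5 kb and -56.3 with the widest peaks.

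The class shares moved more with the H3K4me1 list than with the window, and the spread between replicates holds most alternatives. Leaving out 1 replicate, both-sided peaks ranged from 5.92% to 27.04%, 1-sided from 14.3% to 30.4%, overlapping only from 0.46% to 1.53%, absent from 41.0% to 79.3%, and overlapped from 15.2% to 54.3%. With H3K4me1 of both lists required, both-sided peaks were 6.14% and absent ones 79.5%, with either list 27.2% and 40.8%, and with the widest 9673 H3K4me1 peaks 9.11% and 77.2%. The window of 2 or 10 kb gave 14.8% and 19.04% both-sided, and 62.8% and 56.1% absent.

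With the replicate number as a block, the sign-flip permutation p (exact) was 1 for the number ratio and 0.5 for the other 2 results. No call changed, and neither design can give a smaller p than 0.33 or 0.5. Crossing the replicate numbers, so that no replicate block was kept, gave 16.7% both-sided and 59.8% absent. The differences between replicates 1 and 2 of the 2 marks were not correlated across 29338 regions (r = -0.01), a description across regions, so the numbers are not shown to pair the libraries. Read depth is unknown and limits what absence means.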
